A study of Mus musculus with 8 samples.

Results

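Gjb2 (Cx26), Gjb6 (Cx30), Gjb5 (Cx31.1) and Gja1 (Cx43) are connexin genes of mouse epidermis, and they are 4 of the 17097 genes measured on the arrays. They were selected by gene symbol, from probe sets that carry a single symbol, and the probe set that stands for a gene was chosen by its mean signal over all 8 arrays, the highest one leading. That mean decided only for Gja1, which has 5 probe sets (12.70 for the one that leads, 11.37 to 12.06 for the others); Gjb2, Gjb6 and Gjb5 have 1 each. The genes were picked with earlier results of these data known, so a count of how many of them moved is no independent evidence. The cells were basal cells of the back skin of CD1 mice, an outbred strain, sorted as 300 ITGA6-positive and CD34-negative cells per array, a gate that takes in interfollicular and infundibulum cells. The groups were 3 untreated control mice, 3 mice whose skin was expanded by force and taken at day 4, and 2 mice treated with the phorbol ester TPA (12-O-tetradecanoylphorbol-13-acetate), an activator of protein kinase C. Each mouse gave 1 array, and dose and duration of TPA were not used here. Signals are RMA values on the log2 scale, and group levels are means ± SD (n = 3, 3 and 2 arrays for control, expanded and TPA). A difference between groups is given on the log2 scale with its SE.

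Connexins are membrane proteins that assemble into hemichannels. Hemichannels of neighbouring cells dock into gap junction channels, through which ions and small metabolites pass. Cx43 is the most widespread connexin and is strong in the basal layer of epidermis. Cx26 and Cx30 are low in resting interfollicular epidermis of adult skin and are known to increase in wounded and hyperproliferative epidermis. Mutations of their human genes cause deafness and thickened skin. Cx31.1 is a connexin of stratified epithelia. Phorbol esters are known to reduce gap junction coupling, and kinases of the protein kinase C, MAP kinase and Src families phosphorylate the tail of Cx43.

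Gjb2 and Gjb6 lie close together on chromosome 14, on the same strand and with no measured gene between them. The bases just upstream of their start sites are shown because these neighbours carry the largest differences, and those of Gja1 because it differed far less. The sequences are RefSeq's, of build GRCm38.p6, 5′ to 3′ on the strand of the gene, and end at the base before the annotated start. Capitals mark matches, on either strand, to 5 motifs. The GC box was searched as the letters GGGCGG. For AP-1 the letters were TGANTCA. The TATA box was taken as TATAAA, and its looser form as TTAAAA. The core of a cAMP response element was taken as TGACGT. The window of Gjb2 is chr14:57104703-57104952, that of Gjb6 chr14:57133612-57133861, both on the minus strand, and that of Gja1 chr10:56377050-56377299 on the plus strand.
Gjb2: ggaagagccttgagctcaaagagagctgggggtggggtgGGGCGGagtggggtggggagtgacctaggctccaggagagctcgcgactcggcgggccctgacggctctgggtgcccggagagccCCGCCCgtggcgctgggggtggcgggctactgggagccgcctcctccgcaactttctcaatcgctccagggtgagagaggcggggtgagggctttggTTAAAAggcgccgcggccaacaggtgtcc
Gjb6: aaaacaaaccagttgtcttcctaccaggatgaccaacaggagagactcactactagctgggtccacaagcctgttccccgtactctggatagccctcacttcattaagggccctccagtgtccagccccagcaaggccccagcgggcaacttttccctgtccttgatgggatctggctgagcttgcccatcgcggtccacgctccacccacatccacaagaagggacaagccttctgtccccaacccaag
Gja1: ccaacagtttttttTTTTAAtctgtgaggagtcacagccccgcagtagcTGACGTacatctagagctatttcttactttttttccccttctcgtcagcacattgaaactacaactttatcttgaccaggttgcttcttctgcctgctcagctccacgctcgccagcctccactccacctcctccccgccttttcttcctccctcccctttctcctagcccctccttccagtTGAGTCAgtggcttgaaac
The Gjb2 window held 2 matches to the GC box and 1 to the looser TATA form, which began 29 bases before the start. The Gjb6 window held none of the 5 motifs. The Gja1 window held 1 match to AP-1, beginning 19 bases before the start, and 1 to the cAMP element core. It also held 1 to the looser TATA form, on the opposite strand and 236 bases before the start. The Gjb5 window (chr4:127358165-127358414, minus strand) held 1 match to the TATA box on the opposite strand, 243 bases before the start. Of 32851 windows of 250 bases in the table, 32.7% held the GC box, 6.75% AP-1, 12.4% the TATA box, 17.7% its looser form and 6.47% the cAMP element core. G and C made up 69.2% of the Gjb2 window, 56.8% of that of Gjb6, 54.4% of that of Gjb5 and 50% of that of Gja1, against a median of 52.4% over all windows. No 2 of the 3 windows shown for Gjb2, Gjb6 and Gja1 held the same set of matches, and a match describes the letters only.

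Detection calls were not used, so a stand-in gives the background: on each array, the 95th percentile of 79 receptor genes of the smell and vomeronasal organs, which lay between 6.37 and 6.55. The highest signal of any probe set was 13.7 on each array, and differences may be compressed close to it, which was not measured. Krt5 and Krt14, the basal keratins, were at 13.28 ± 0.05 and 13.30 ± 0.04 in the control arrays, Itga6 was at 12.27 ± 0.04, 11.80 ± 0.04 and 11.58 ± 0.09 in control, expanded and TPA arrays, and Cd34 was under the limit on every array. Of the 8 basal markers, 2 were higher (Krt15 and Dst) and 2 lower (Itga6 and Itgb4) in each comparison with control. Over all genes, 11.5% passed between expanded and control and 20.8% between TPA and control. Krt15, a further basal keratin, was at 8.52 to 8.72 on the control, 9.75 to 9.98 on the expanded and 10.96 and 11.08 on the TPA arrays. TPA minus control was 0.86 ± 0.08 for Dst and -0.32 ± 0.07 for Itgb4. Keratins known to be induced by phorbol ester and wounding ran against the labels. Krt16 was at 13.04 ± 0.01, 12.90 ± 0.04 and 12.15 ± 0.07, and Krt6a at 13.23 ± 0.06, 13.14 ± 0.02 and 12.54 ± 0.15, lowest in the TPA arrays. Krt6b was at 12.77 to 12.82 on the control arrays and at 6.47 and 11.27 on the TPA arrays. The value 6.47, on TPA replicate 1, lies at the background limit of that array, so the size of the Krt6b fall rests largely on 1 array. These 3 stress keratins were all lower in TPA than in control arrays (adjusted p = 0.0308 or less by limma), as were 10.6% of all genes. None passed between expanded and control, where 0 of the 3 had an unadjusted p under 0.05. Other large differences lay between the same groups. In control, expanded and TPA arrays S100a8 had means of 10.37, 9.86 and 7.12, and S100a9 of 10.30, 9.79 and 7.93. S100a8 was above the limit on 1 of the 2 TPA arrays. Krt2, a suprabasal keratin, went the other way, at 6.61 ± 0.69, 12.33 ± 0.07 and 12.58 ± 0.06. Some genes of AP-1, which phorbol esters are known to induce, ran the way the labels say. TPA minus control was 1.20 ± 0.12 for Jun, 0.49 ± 0.10 for Junb, 0.77 ± 0.10 for Jund and 0.50 ± 0.14 for Fosl1 (adjusted p = 0.0326 or less by limma). Fos (0.19 ± 0.07, adjusted p = 0.118) and Fosl2 (0.15 ± 0.08, adjusted p = 0.217) did not pass by limma. Gjb2 and Gjb6 also ran against the course given above, low at rest and raised in hyperproliferative epidermis. Gjb2 had means of 12.62 in control and 9.47 in TPA arrays, and Gjb6 of 9.97 and 6.70. Whether the control and TPA labels were exchanged was not tested. An exchange would turn the sign of every difference between these groups, those of the connexins included. It would also exchange the comparisons of the expanded arrays with these 2 groups. Expanded minus control would then be 2.69 for Gjb2 and 0.97 for Gjb6, in place of -0.46 and -2.30. The groups are therefore the arrays labelled control, expanded and TPA, and each direction follows the labels as given.

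The signal of Gjb2 was 12.67, 12.64 and 12.55 on the 3 control arrays, 12.06, 12.20 and 12.20 on the 3 expanded arrays, and 9.67 and 9.27 on the 2 TPA arrays. The 3 groups did not overlap: the expanded arrays sat just under the control arrays, and both TPA arrays lay far below. Gjb2 was 8.87-fold lower in the TPA arrays than in the control arrays (-3.15 ± 0.12, adjusted p = 2.00e-06 by limma over all genes). Against expanded arrays it was 6.44-fold lower there: expanded minus TPA was 2.69 ± 0.12 (adjusted p = 2.59e-05), rank 10 from the highest among the 17097 differences. Between expanded and control arrays the difference was -0.46 ± 0.11 (adjusted p = 0.0239), a fold of 1.38. This smaller call did not survive the loss of any array of the 2 groups (6 of 8 such fits; control replicate 1, 2 or 3, expanded replicate 1, 2 or 3), with differences from -0.50 to -0.42 and adjusted p up to 0.085. The control signals of Gjb2 are toward the top of the scale, where differences may be compressed, and the part of this in the small difference was not tested.

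Gjb6 stood at 9.84, 10.24 and 9.82 on the control arrays and at 7.38, 7.58 and 8.05 on the expanded arrays. On the TPA arrays it was at 6.98 and 6.43, and the second lies under the background limit of its array, 6.48. The groups did not overlap, and most of the measured distance lay between control and expanded arrays. Gjb6 was 4.91-fold lower in expanded than in control arrays (-2.30 ± 0.21, adjusted p = 0.000299), rank 13 from the lowest among all genes, and each fit that left out 1 array kept the call (adjusted p up to 0.00206). Its signal was 9.60-fold lower in TPA than in control arrays (-3.26 ± 0.23, adjusted p = 3.24e-05), and expanded minus TPA was 0.97 ± 0.23 (adjusted p = 0.0462). Only 1 of the 2 TPA arrays measured Gjb6 above background, so the sizes of these differences are limited by the floor. The call between expanded and TPA was lost in 6 of the 8 fits without 1 array (without control replicate 1, 2 or 3, expanded replicate 2 or 3, or TPA replicate 2), with values from 0.69 to 1.24 and adjusted p up to 0.196, and was also lost under quantile normalization and with arrays centred on their medians.

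**Figure D1:**
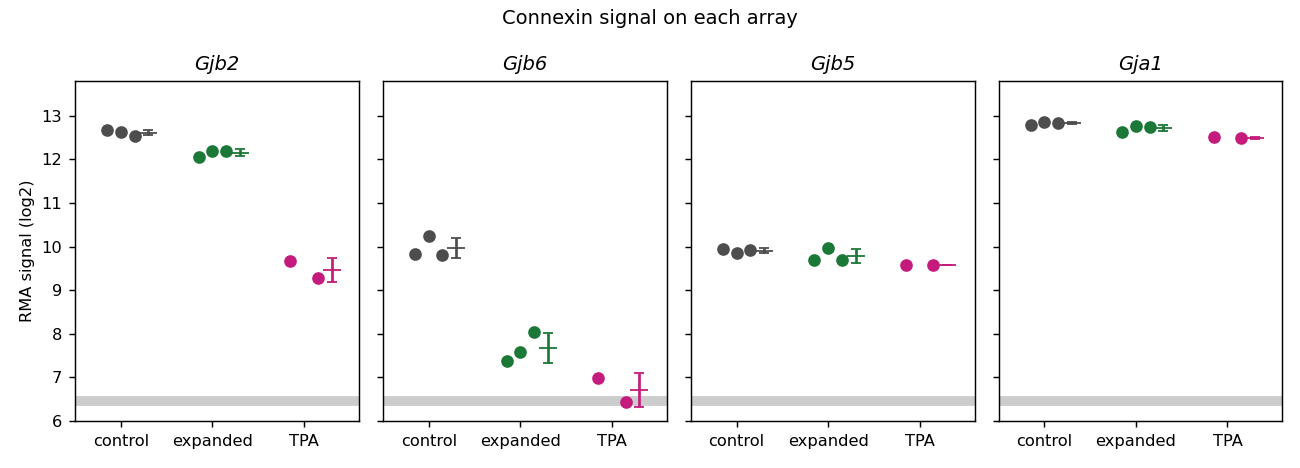
RMA signal (log2) of Gjb2, Gjb6, Gjb5 and Gja1 on each of the 8 arrays, 1 point per array, with the group mean and SD beside the points and the range of the background limits, 6.37 to 6.55, as a grey band. Gjb2 drops mainly in the TPA arrays, to 9.67 and 9.27, while Gjb6 is already down in the expanded arrays, at 7.38 to 8.05; Gjb5 and Gja1 stay within a narrow range.

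In measured signal, the larger step lay between expanded and TPA arrays for Gjb2 and between control and expanded arrays for Gjb6. The floor cuts off the second step of Gjb6, so where most of its fall in transcript lay cannot be told. The log2 signal of Gjb6 minus that of Gjb2 on the same array was -2.82, -2.40 and -2.73 on the control arrays, -4.68, -4.62 and -4.16 on the expanded arrays, and -2.69 and -2.84 on the TPA arrays. The expanded arrays lay below all other arrays, but the TPA values cannot be ranked against the control values, because Gjb6 was under the background limit on TPA replicate 2 and close to it on TPA replicate 1. This difference was formed after the values had been seen and is given with no test. It shows unequal change of the 2 signals and not their relative abundance, and any compression of high Gjb2 signals enters it.

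Gjb5 was at 9.94, 9.86 and 9.93 on the control arrays, 9.68, 9.98 and 9.70 on the expanded arrays, and 9.57 and 9.59 on the TPA arrays. Expanded replicate 2 lay above all control arrays, so these groups overlapped, and both TPA arrays lay below every other array. Expanded minus control was -0.12 ± 0.09 (adjusted p = 0.493), with a 95% confidence interval from -0.33 to 0.08. TPA minus control was -0.33 ± 0.10 (adjusted p = 0.0485), a 1.26-fold fall just past the threshold. It was lost in 7 of the 8 fits without 1 array (without control replicate 1, 2 or 3, expanded replicate 1 or 3, or TPA replicate 1 or 2), with adjusted p up to 0.165, and also with arrays centred on their medians. Expanded minus TPA was 0.21 ± 0.10 (adjusted p = 0.319, interval -0.02 to 0.44).

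Gja1 signals were high on every array. The leading probe set was at 12.80, 12.85 and 12.83 on the control arrays, 12.64, 12.76 and 12.75 on the expanded arrays, and 12.52 and 12.49 on the TPA arrays. The order of the groups was again control, expanded, TPA, with no overlap but with small steps, and the signals are close to the highest on the arrays. TPA minus control was -0.33 ± 0.07 (adjusted p = 0.0134), a 1.25-fold fall, and the call was lost without TPA replicate 1 or TPA replicate 2 (adjusted p up to 0.0658). Expanded minus control was -0.11 ± 0.07 (adjusted p = 0.368, interval -0.26 to 0.04) and expanded minus TPA 0.21 ± 0.07 (adjusted p = 0.142, interval 0.05 to 0.38), and neither passed the test.

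The 5 probe sets of Gja1 could be set beside each other, in a fit over all 28898 probe sets with 1 symbol. TPA minus control was below 0 in all 5, from -0.33 to -0.20, but passed the test only in the leading probe set (adjusted p = 0.016) and in the one next in mean signal (adjusted p = 0.0281). The other 3, whose names carry the suffix x_at for probes that may also match other transcripts, had adjusted p from 0.0686 to 0.174. Expanded minus control lay between -0.11 and 0.01 and passed in none of the 5. In that second probe set the control arrays were at 12.14, 12.14 and 12.14, and the expanded arrays at 12.03, 12.11 and 12.18, so the groups overlapped there although they did not in the leading probe set.

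**Figure D2:**
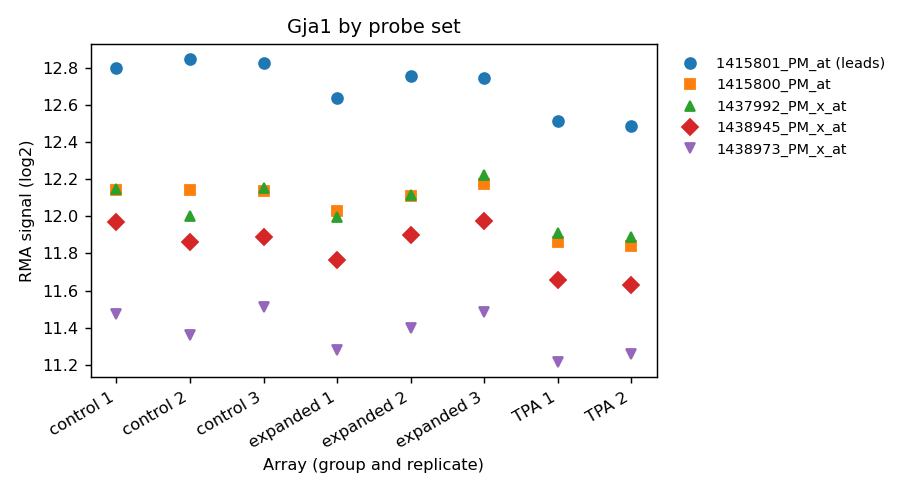
RMA signal (log2) of each of the 5 Gja1 probe sets on the 8 arrays, with the leading probe set in blue at the top and each array named by its group and replicate. In each probe set both TPA arrays lie below every control and expanded array, while control and expanded arrays overlap in all but the leading probe set.

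Set against all genes, 2 of the 4 connexins passed between expanded and control arrays, both lower, where 11.5% of all genes passed and 5.78% passed as lower. All 4 passed as lower between TPA and control arrays, where 20.8% of genes passed and 10.6% as lower. Between expanded and TPA arrays 2 passed, both higher in expanded arrays, where 5.98% of genes passed and 3.16% as higher. The arrays of the 2 groups did not overlap for 3 of the 4 between expanded and control (30% of all genes), and for 4 of 4 between TPA and control (45.8%) and between expanded and TPA (35.7%). The group means of all 4 fell in the order control, expanded, TPA, an order that 28.7% of all genes shared. The comparisons with control share their control arrays, so their counts are not independent of each other.

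The other connexins gave little signal. The family is described over 14 measured connexin genes, and others were not analysed here. Of the 14, 7 lay under the background limit on every array (Gja5, Gja10, Gjb1, Gjc1, Gjc3, Gjd2 and Gje1). None of the 10 that are not among the 4 epidermal genes passed in any comparison of the main limma fit. In some alternative fits, given below, a connexin outside the 4 did pass. Over all 14 an unadjusted p under 0.05 was seen for 2 genes between expanded and control, for 7 between TPA and control and for 3 between expanded and TPA. Of all genes, 23.7%, 31.7% and 19.3% had one. The median difference over the 14 was -0.05, -0.16 and 0.10 in these comparisons. With 7 of the 14 under the limit on every array, this median is held near 0, and the distance of Gjb2 and Gjb6 from it says little.

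Gja3, Gja4 and Gjd4 were above the limit on some or all arrays. Gja3, known from the lens and the next measured gene to Gjb2, was at 6.88 to 7.06 on the control, 6.97 to 7.13 on the expanded and 7.15 and 7.23 on the TPA arrays (TPA minus control 0.23 ± 0.09, adjusted p = 0.101). Gja4, a connexin of arterial endothelium, was at 6.79, 7.01 and 6.86 on the control arrays, 6.96, 6.58 and 6.91 on the expanded arrays, and 6.70 and 6.66 on the TPA arrays, and its adjusted p was 0.306 or more. Gjd4 was at 6.49 as a mean of all arrays, above the limit on 6 of 8, with differences of 0.09, 0.05 and 0.04. These levels sit close to background, where a change in transcript gives little change in signal.

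**Figure D3:**
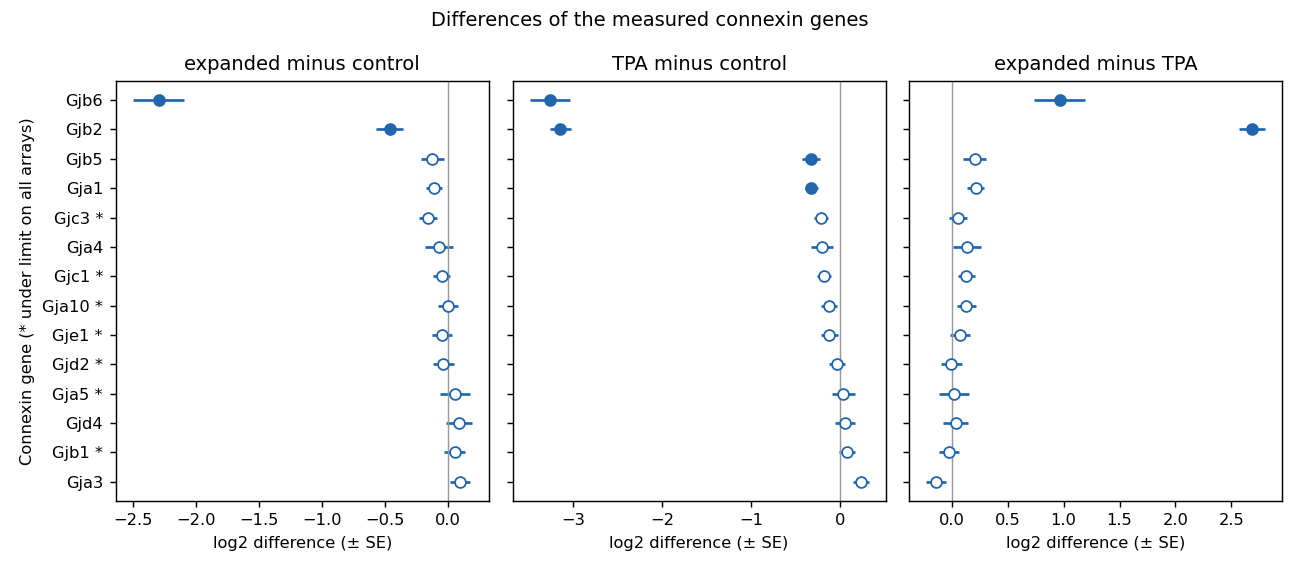
Log2 difference ± SE of the 14 measured connexin genes in each of the 3 comparisons, with filled circles for genes past the threshold and an asterisk for genes under the background limit on all 8 arrays; each panel has its own scale. Gjb6 (-2.30) and Gjb2 (-0.46) are the only filled circles for expanded minus control, and Gjb6 (-3.26) and Gjb2 (-3.15) stand apart for TPA minus control.

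The fall of Gjb2 and Gjb6 was not shared by most genes around them. Of the 8 measured genes flanking the pair on chromosome 14, 4 on each side, 1 passed between expanded and control and 1 between TPA and control. In both cases it was Zmym5, a zinc finger gene, which was higher (1.05 ± 0.10, adjusted p = 0.00043, and 1.51 ± 0.11, adjusted p = 4.25e-05). The other 7 differed by -0.12 to 0.16 between expanded and control and by -0.43 to 0.24 between TPA and control. Cryl1, a lens crystallin relative and the next measured gene past Gjb6, was at 7.93 in the control arrays and differed by 0.07 ± 0.12 and 0.12 ± 0.13. Il17d, a cytokine gene, was under the limit on every array. The neighbours were looked at after the values of the connexins were known.

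**Figure D4:**
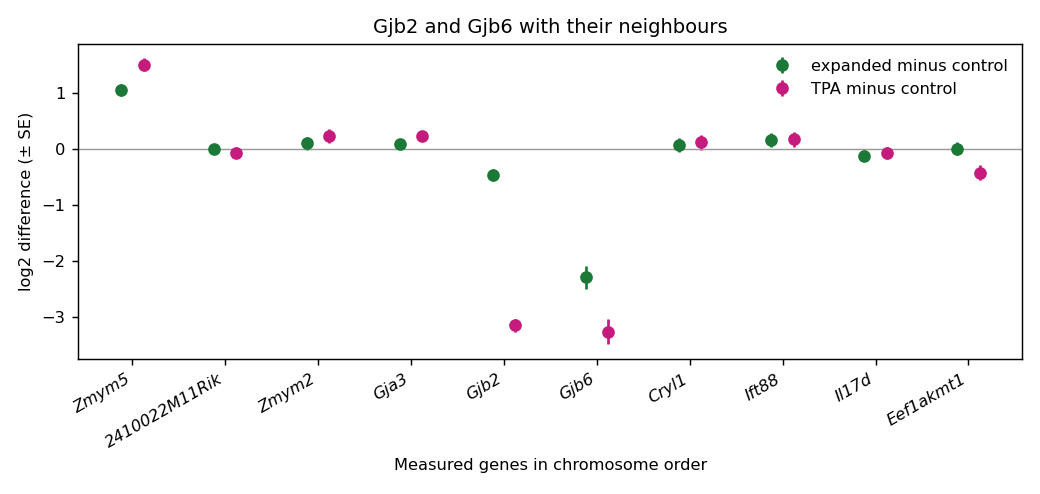
Log2 difference ± SE from control of Gjb2, Gjb6 and the 4 measured genes on either side, in chromosome order and evenly spaced, for expanded (green) and TPA (magenta) arrays. Gjb2 and Gjb6 lie below 0 and Zmym5 above it (1.05 and 1.51), while the other 7 genes lie between -0.43 and 0.24.

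The genes with the most similar course over the 8 arrays were taken among 9073 genes with a group mean above the median of all genes. For Gjb2 these were the stress keratin Krt16 (r = 0.999), Rbp2 (r = 0.992), a retinol-binding protein, and Syncrip (r = 0.988), an RNA-binding protein. Krt16 has a far smaller range than Gjb2, with TPA minus control of -0.89 ± 0.07. For Gjb6 they were the ubiquitin ligase gene Pja1 (r = 0.994), Fbxw8 (r = 0.992), an F-box gene, and Fam126a (r = 0.992), which was at 9.28, 8.15 and 7.63 in control, expanded and TPA arrays. For Gjb5 they were Bod1 (r = 0.991), the RNA-binding protein gene Elavl1 (r = 0.970) and Dok4 (r = 0.961). For Gja1 they were Tmem165 (r = 0.993), Lad1 (r = 0.991), which encodes the basement membrane protein ladinin, and Wdfy2 (r = 0.987). The 8 arrays fall into 3 groups, which alone can give a high r. Among the connexins, Gjb2 and Gja1 were most alike (r = 0.945), and Gjb2 and Gjb6 correlated at 0.780 and Gjb6 and Gjb5 at 0.729.

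Of 17 measured genes for partners, kinases and turnover of connexins, 1 was higher and 3 lower in expanded than in control arrays (11.5% of all genes passed), with a median of -0.10 beside 0.01 over all genes. Src, the kinase that phosphorylates Cx43, was lower (-0.51 ± 0.07, adjusted p = 0.00194), as were Cav1, caveolin (-0.47 ± 0.08, adjusted p = 0.00705), and Tjp1, the ZO-1 scaffold that binds the tail of Cx43 (-0.38 ± 0.10, adjusted p = 0.0448). Ubqln4, a ubiquilin that takes part in turnover of Cx43, was higher (0.32 ± 0.09, adjusted p = 0.0481). Between TPA and control, where 20.8% of all genes passed, 1 was higher and 4 lower, with a median of -0.18. Here Src (-0.65 ± 0.08), Tjp1 (-0.65 ± 0.11), Tsg101, an endosomal sorting gene (-0.53 ± 0.14), and Prkca, a protein kinase C gene (-0.49 ± 0.15, adjusted p = 0.046 by limma), were lower. Nedd4, a ubiquitin ligase of Cx43, was higher (0.32 ± 0.07). Between expanded and TPA none of the 17 passed by limma, and 5 had an unadjusted p under 0.05, as 19.3% of all genes did.

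The promoter factor list held 12 genes for factors of the AP-1, Sp, Klf4, AP-2 and p63 kind, all measured. In the TPA arrays 7 of the 12 were higher than in control arrays and none was lower (20.8% of all genes passed in either direction), with a median of 0.40. Jun was higher (1.20 ± 0.12, adjusted p = 0.000171), as were Jund (0.77 ± 0.10), Klf4 (0.47 ± 0.07) and Junb (0.49 ± 0.10). Between expanded and control, where 11.5% of all genes passed, 1 was higher, Jund (0.32 ± 0.09), and 1 lower, Fosl1 (-0.79 ± 0.12, adjusted p = 0.00398). Between expanded and TPA, where 5.98% of all genes passed, 5 of the 12 were lower in the expanded arrays. Fosl1 (-1.28 ± 0.14) and Jun (-0.88 ± 0.12) had the smallest p. Trp63, the master factor of epidermal basal cells, did not pass in any comparison (adjusted p = 0.355 or more). Of the pannexins, which form related channels that do not dock, Panx1 was at 9.44 ± 0.15, 9.32 ± 0.07 and 9.10 ± 0.35 in control, expanded and TPA arrays, and Panx2 and Panx3 were under the limit on every array. None of the 3 passed in any comparison by limma, with 0, 1 and 1 at an unadjusted p under 0.05.

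Some markers of other cell states moved with the same groups. Over all genes, 11.5% passed between expanded and control, 20.8% between TPA and control and 5.98% between expanded and TPA. Of 10 suprabasal markers, 6 were higher in expanded and 5 in TPA arrays than in control arrays, and none was lower. The mean of their signals was 8.60 to 8.74 on the control, 9.90 to 10.05 on the expanded and 9.85 to 9.98 on the TPA arrays. Of 7 measured macrophage and neutrophil markers, 1 was lower in expanded and 3 in TPA arrays (Cd14, S100a8 and S100a9, the last 2 also made by keratinocytes), and their mean was 7.33 to 7.76, 7.04 to 7.09 and 6.13 to 6.64. All 5 T cell markers were under the limit on every array. The 8 endothelial markers had a mean of 6.41 to 7.66 in control, 6.41 to 6.94 in expanded and 6.24 to 6.34 in TPA arrays, highest on control replicate 1, where Gja4 (6.79) was the lowest of the control arrays. Of 7 measured infundibulum markers, 1 was higher and 1 lower in each comparison with control, and their mean was 9.31 to 10.22, 8.48 to 9.96 and 10.14 to 10.38 on control, expanded and TPA arrays. In each of the lists for bulge, sebaceous gland, pigment, Langerhans and Merkel cells and fibroblasts at most 2 members passed in a comparison. The part of these markers in the connexin results was not tested, and in such sorted pools fewer cells of a type and less RNA per cell cannot be told apart.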

How the data were processed

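The deposited values are log2 signals of Affymetrix probe sets made by the authors with RMA, per the submitters' processing notes, which give no version. The table held 45141 probe sets, of which 28898 carried 1 gene symbol (annotation of 2016), 551 several, 15588 none, and 104 were controls. Depth has no counterpart on arrays, so precision rests on the number of arrays and their spread. Symbols were updated by gene identifier in RefSeq's gene table, and 161 were not found and kept. With limma 3.58.1 (R 4.3.3; lmFit, then eBayes) a linear model took the group means of all 8 arrays for 17097 genes, on 5 residual and 3.54 prior degrees of freedom, with Benjamini-Hochberg adjustment over all genes and a threshold of 0.05. The procedure was tested on simulated data first.

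The connexins, the lists and the tests were chosen with earlier results of these data known. Connexins that passed or lay above the background limit were named. Also named were up to 4 genes of the other lists with the smallest p, some further list members and, for each connexin, the 3 genes of highest Pearson r. Lists are described by counts and medians. Single mice stand behind the arrays, and replicate numbers of control and expanded arrays did not pair them. Alternatives were quantile normalization, median centring, a background filter, signals raised to the limit, the mean of probe sets, single probe sets, a trended robust fit, array weights, 2-group fits, a replicate block and leaving out each array.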

Additional observations from a re-analysis of the deposited data

How the results depend on the processing

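The falls of Gjb2 from control or expanded to TPA arrays and of Gjb6 from control to expanded or TPA arrays kept direction and call in every alternative run: TPA minus control from -3.35 to -2.95 and expanded minus TPA from 2.49 to 2.88 for Gjb2, and expanded minus control from -2.49 to -2.15 and TPA minus control from -3.54 to -2.99 for Gjb6. Of 216 values of the 4 connexins under 21 alternatives, 180 kept direction and side of the threshold. Without 1 array in turn, expanded minus control ranged from -0.50 to -0.42 for Gjb2, TPA minus control from -0.36 to -0.31 for Gjb5 and from -0.34 to -0.31 for Gja1, and expanded minus TPA from 0.69 to 1.24 for Gjb6. The family counts ranged from 1 to 2, 2 to 4 and 1 to 2 in the 3 comparisons, and the counts of all genes from 1261 to 2076 (1960 with all arrays) for expanded against control and from 560 to 922 (1022) for expanded against TPA. For Gjb6, expanded minus TPA did not pass under quantile normalization (0.93, adjusted p = 0.0553), median centring (0.93, adjusted p = 0.0564), array weights (0.98) or in the fit of these 2 groups (0.97), and the family count was then 1 in place of 2. In that 2-group fit 511 genes passed, with fewer arrays behind it. For Gjb5, TPA minus control did not pass under median centring (-0.30, adjusted p = 0.0787) or array weights (-0.31). For Gja1, expanded minus TPA passed with a trended robust fit (0.21, adjusted p = 0.00565), expanded minus control turned to 0.011 in 1 x_at probe set, and TPA minus control did not pass in 3 probe sets (-0.20, -0.26 and -0.21). The cause of these shifts was not tested.

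Replicate numbers did not pair the arrays: residuals of control and expanded arrays of the same number correlated at -0.18 to 0.03, and 0 of 6 correlated best with their own number. With a replicate block the values were -0.46 for Gjb2 (expanded minus control, adjusted p = 0.0556), -0.35 for Gjb5 and -0.32 for Gja1 (TPA minus control), and 0.91 for Gjb6 (expanded minus TPA), none past the threshold. The family counts with the block were 1, 2 and 1 (2, 4 and 2 without), and 541 genes passed between expanded and TPA. No connexin other than these lost its call under the block. The number of arrays, and signals close to background or to the top of the scale, limit these values.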

Other observations

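Gja3, whose leading probe set passed in no comparison, has another one that went up. It was at 4.60, 4.44 and 4.59 on the control arrays, 5.35, 5.20 and 5.003 on the expanded arrays, and 5.97 and 6.14 on the TPA arrays, in the opposite order to Gjb2 and Gjb6. In the fit over 28898 probe sets it differed by 0.64 ± 0.10 between expanded and control (limma adjusted p = 0.00589) and by 1.51 ± 0.12 between TPA and control (adjusted p = 6.5e-05). Each of these signals lies under the background limit of its array, and the 2 probe sets disagree, so no change of Gja3 is drawn from them. It was singled out after its values were seen.

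Panx3 was at 6.28 on TPA replicate 1 and between 5.43 and 5.69 on the other 7 arrays. Its dimmest probe set gave 5.35 on TPA replicate 1 and 4.21 to 4.37 on the others. All of these signals are under the limit.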
